A study of Zea mays with 6 samples.

Results

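The 150 genes described here were lower in the third replicate of both genotypes of a maize leaf series than in 1 chosen library of each. Most were not low in the third replicates alone. In 125 of them edf1-D replicate 1, which did not enter this comparison, also lay nearer to the low than to the high level. They were chosen on measured values: edf1-D replicate 2 and WT replicate 1 both stood above edf1-D replicate 3 and WT replicate 3, and the chosen genes had the widest distance between these pairs of libraries. This distance, called the gap, is the lower of the first pair minus the higher of the second pair on the log2(FPKM + 1) scale. FPKM is a fragment count divided by transcript length and library size. Genes entered the ranking if they had 0.5 FPKM or more in 3 or more of the 6 libraries, a mean of 5 FPKM or more, and a place before the last 537 genes in the order of gene IDs. Of 44303 genes in the files, 18719 passed the first of these filters and 9280 passed all 3, and the 150 members are the largest gaps among the 9280.

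The series profiled leaf mRNA of the edf1-D mutant (3 libraries, titled edf-D in the labels) and of the wild type, WT (3 libraries). Both genotypes share the W22 background, a maize inbred line, and were field-grown, with leaves taken 25 days after germination. By maize convention the suffix D marks a dominant allele. The labels give no treatment, do not say how many plants went into a library, and name no batch, so p-values rest on the spread between libraries alone, and part of that may be technical.

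A maize leaf is a mixture of cell types, and its C4 photosynthesis is divided between mesophyll and bundle sheath cells, which express different genes. In such a bulk sample, fewer cells of a type and less RNA per cell cannot be told apart. FPKM is a relative measure, so a gene's value also depends on what the other transcripts of the library take up. The gene name column of the files is empty, and 0 of the 44303 IDs matched the RefSeq gene table of the B73 assembly. Members are therefore given by ID, with no name, role or sequence, and the leaf label could not be checked against marker genes.

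Libraries differed in the sum of their FPKM values, and in the same direction as the members. The sum was 552924, 686251 and 472269 in edf1-D replicates 1 to 3, and 607906, 565167 and 416517 in WT replicates 1 to 3. The libraries in which members were chosen to be high thus had the highest sums in their genotype, and the third replicates the lowest. On the deposited values 4967 of the 9280 genes (53.5%) had a gap above 0, and 99 (1.07%) had the reverse order, with the third replicates above both other libraries. After each library was rescaled to the same sum (TPM), 735 genes (7.92%) had a gap above 0 and 2774 (29.9%) the reverse order. Median-ratio scaling gave 1725 (18.6%) and 1208 (13.0%). The direction shared by most genes therefore followed the scaling, and its part in the members' values was not tested as a cause.

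The members kept their order under these scalings, an outcome fixed in large part by the rule. Each was chosen for a gap of 0.95 or more, and TPM and median-ratio scaling change all genes of a library by the same factor. All 150 still had a gap above 0 with TPM, where the lowest gap was 0.26, and with median-ratio scaling, where it was 0.57. Quantile normalization left 148 above 0. Their median gap was 1.18 on the deposited values, 0.79 with TPM and 0.87 with median-ratio scaling, against 0.03, -0.52 and -0.27 over the 9280 genes. Of the 150, 131 were also among the 150 largest gaps with TPM and 141 with median-ratio scaling.

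**Figure D1:**
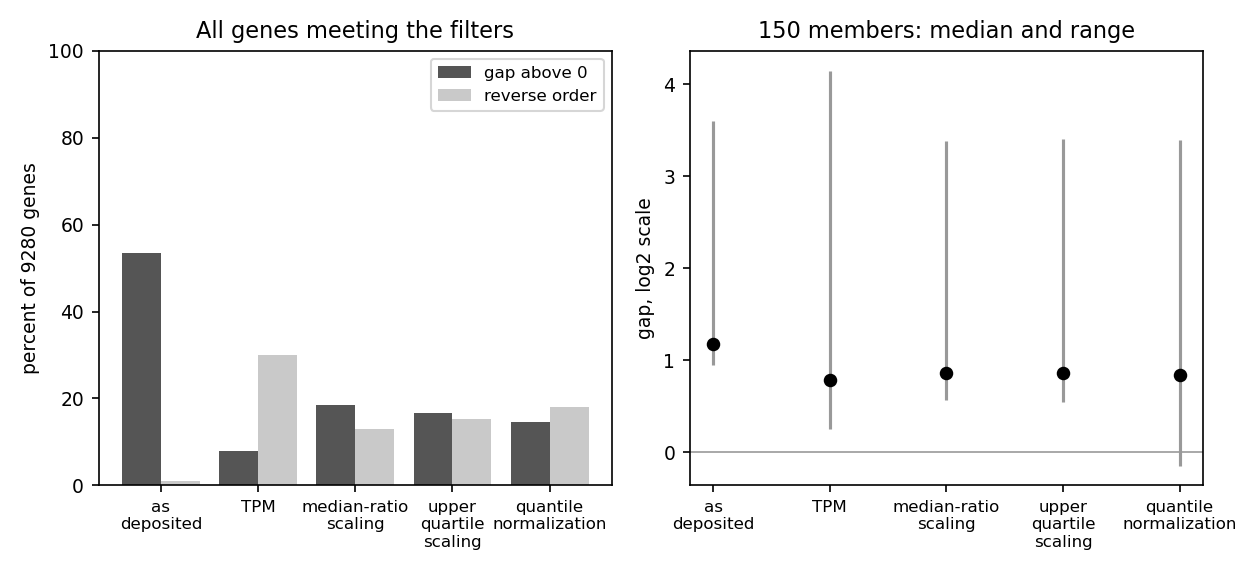
Left, percent of the 9280 genes meeting the filters with a gap above 0 (dark) and with the reverse order (light), under each scaling; right, the gap of the 150 members on the log2 scale, with the median as a point and the range as a line. Among all genes the balance turned with the scaling, from 53.5% above 0 as deposited to 7.92% with TPM, while the members' median gap stayed between 0.79 and 1.18. The members were chosen for a gap of 0.95 or more on the deposited values, which fixes their part of this in large measure.

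The members' levels by library show the pattern that chose them, and where the remaining libraries stood. Their median was 9.09 FPKM in edf1-D replicate 1, 26.5 FPKM in edf1-D replicate 2 and 6.22 FPKM in edf1-D replicate 3. In WT it was 20.4 FPKM in replicate 1, 11.2 FPKM in replicate 2 and 6.25 FPKM in replicate 3. Over all 9280 genes the medians had a narrower span, from 12.8 FPKM in edf1-D replicate 3 to 18.5 FPKM in WT replicate 2. Together the members held 3.14% of the FPKM of edf1-D replicate 2 and 2.28% of that of WT replicate 1. In the other 4 libraries their share lay between 1.05% (WT replicate 3) and 1.35% (WT replicate 2).

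Few members reached 0 in the low libraries. A set of 5 members was listed at 0 in the third replicates of both genotypes, edf1-D replicate 3 alone listed 2 and WT replicate 3 alone listed 6, and 137 had a value above 0 in both. These 5 are also all of the 9280 genes that were listed at 0 in both. An exact 0 in files without counts may stand for a failed estimate, hence the wording.

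**Figure D2:**
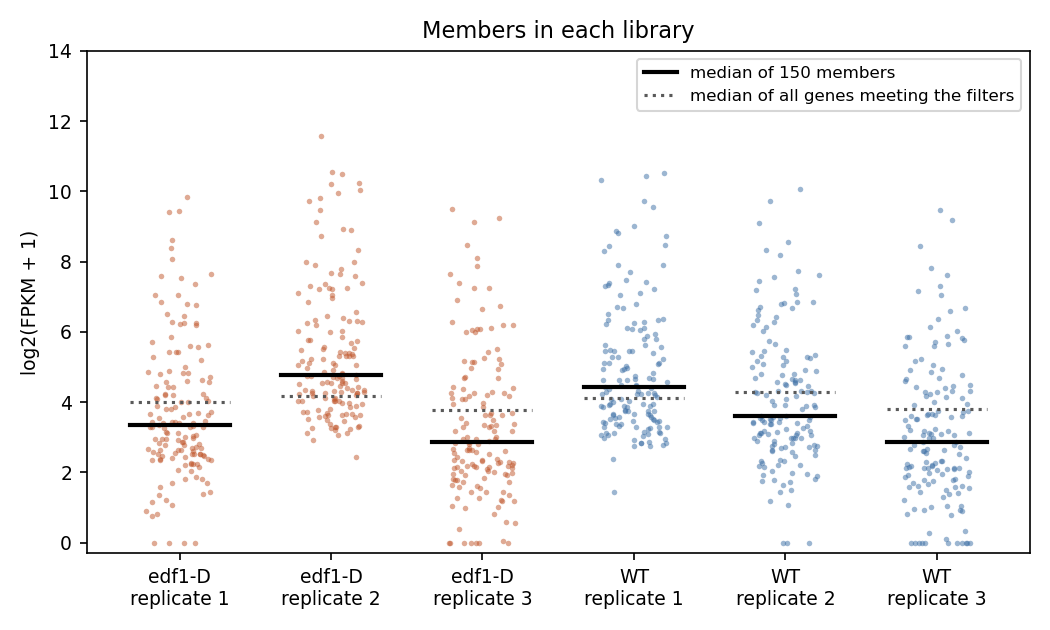
Level of the 150 members, log2(FPKM + 1), in each library (points; edf1-D orange, WT blue), with the median of the members as a black line and the median of the 9280 genes meeting the filters as a dotted line. The members' median lies above the dotted line in edf1-D replicate 2 and WT replicate 1 and below it in the other 4 libraries.

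Gap sizes fell off quickly from a few extreme genes. A gap of 3 or more was held by 5 members, 2 or more by 16, 1.5 or more by 37 and 1 or more by 130. The last member had a gap of 0.9535 and the first gene outside 0.9533, so the limit separates near-equal values. The last member, Zm00001eb198420, stood at 114.5, 150.6 and 77.3 FPKM in edf1-D replicates 1 to 3 and at 165.2, 175.1 and 69.3 FPKM in WT replicates 1 to 3. The first gene outside, Zm00001eb265050, stood at 76.5, 146.4 and 75.1 FPKM in edf1-D and at 149.1, 97.6 and 48.1 FPKM in WT.

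Zm00001eb183230 had the largest gap, 3.59. Its level was 1.25, 33.4 and 1.72 FPKM in edf1-D replicates 1 to 3, and 31.9, 10.6 and 0 FPKM in WT replicates 1 to 3. The high libraries of both genotypes were thus near-equal, edf1-D replicate 1 was as low as the third replicate, and WT replicate 2 lay between. Zm00001eb062210 followed with a gap of 3.48. It stood at 4.49, 11.5 and 0 FPKM in edf1-D and at 10.2, 7.41 and 0 FPKM in WT, so the third replicates were listed at 0 and the libraries outside the gap, edf1-D replicate 1 and WT replicate 2, lay between the low and the high ones.

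Within each genotype the members differed more between the high and the low library than most genes, as the rule required. The median difference of edf1-D replicate 2 minus edf1-D replicate 3 was 1.79 over members and 0.37 over the 9280 genes on the log2 scale. For WT replicate 1 minus WT replicate 3 it was 1.47 over members and 0.31 over the 9280 genes. The difference was larger in edf1-D for 93 members and larger in WT for 57. In 77 members the difference in edf1-D and that in WT lay within 0.5 of each other, and in 24 both were 2 or more. Pearson's r between them was 0.31 over the 150 members, a description only, since the rule cut off low values of either.

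**Figure D3:**
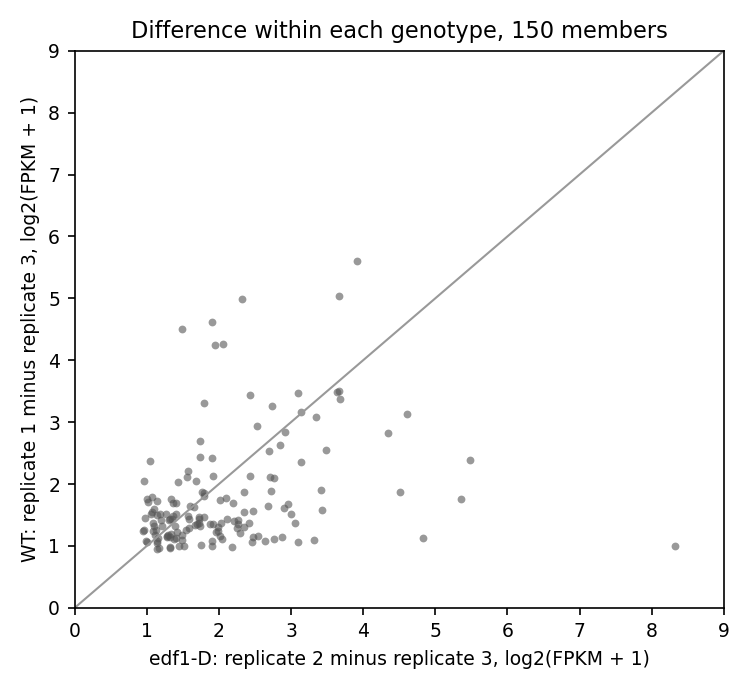
For each of the 150 members, the difference between edf1-D replicates 2 and 3 (horizontal) and between WT replicates 1 and 3 (vertical), both in log2(FPKM + 1), with the line of equality. All points lie above 0.95 on both axes by the rule, and 93 lie on the edf1-D side of the line.

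Among the high libraries, edf1-D replicate 2 led. It was the highest of the 6 libraries in 103 members, WT replicate 1 in 39 and WT replicate 2 in 8. Over the 9280 genes WT replicate 2 was most often the highest, in 44.6%, against 29.6% for edf1-D replicate 2 and 15.2% for WT replicate 1. With TPM, edf1-D replicate 2 was the highest in 79 members and WT replicate 1 in 54, against 8.06% and 8.61% of the 9280 genes. A level at least 1 higher on the log2 scale in edf1-D replicate 2 than in WT replicate 1 was seen in 31 members, and the opposite in 1. Over the 9280 genes the shares were 4.18% and 2.34%. Between the low libraries the levels were closer: edf1-D replicate 3 minus WT replicate 3 had a median of 0.10 over members and -0.04 over the 9280 genes. As deposited, edf1-D replicate 3 stood above WT replicate 3 in 91 members. The count was 106 with median-ratio scaling, 97 with upper quartile scaling and 98 with quantile normalization. With TPM it was 69, so the order turned under that scaling only.

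The gap did not use edf1-D replicate 1 and WT replicate 2, which entered the rule only through the filters on low values. Their place was measured on a scale set for each gene, where 0 is the higher of the third replicates and 1 the lower of the high libraries. Edf1-D replicate 1 had a median position of 0.21, with 125 of 150 members nearer to the low end. WT replicate 2 had a median position of 0.48, with 77 members nearer to the low end and 73 nearer to the high end. Over the 4967 genes with a gap above 0, the medians were 0.54 for edf1-D replicate 1 and 1.52 for WT replicate 2. Members have the largest gaps of these genes, so the scales are not alike. Both libraries lay between the low and high ends in 78 members. Each position is from 1 library, so no test was possible.

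Most members were below the high level in these libraries. The level of edf1-D replicate 1 was under both high libraries in 145 members, where 50.7% of the 9280 genes had this order. WT replicate 2 was under both in 130 members, against 25.6% of the 9280 genes. With TPM these counts were 144 and 116. The level of edf1-D replicate 1 was above the third replicates of both genotypes in 112 members (74.7%, against 61.8% of the 9280 genes) as deposited, and in 70 members with TPM, against 17.2% of the 9280 genes. For WT replicate 2 the count was 121 (80.7%, against 78.7% of the 9280 genes) as deposited, and 104 with TPM, against 41.4% of the 9280 genes. Since the rule picked the high libraries for high and the third replicates for low values, these counts describe the members and are no test.

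**Figure D4:**
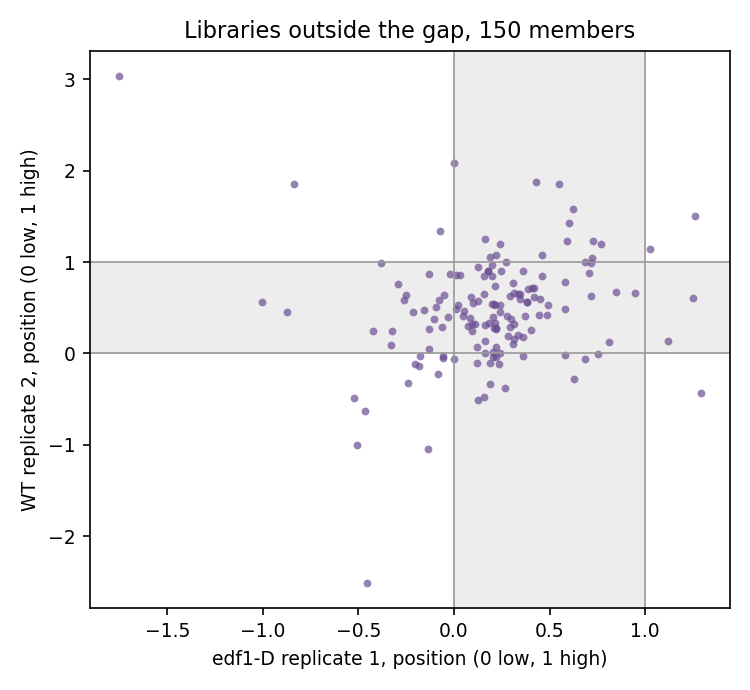
Position of edf1-D replicate 1 (horizontal) and WT replicate 2 (vertical) for each of the 150 members, on a scale where 0 is the higher of the third replicates and 1 the lower of edf1-D replicate 2 and WT replicate 1; grey bands mark 0 to 1. Most points lie left of the middle of the band for edf1-D replicate 1 (median 0.21) and around its middle for WT replicate 2 (median 0.48).

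In 13 members both of these libraries were at or below the higher of the third replicates, so that the gene was high in edf1-D replicate 2 and WT replicate 1 only. The largest gap of this kind was that of Zm00001eb387790, with 4.73, 253.4 and 15.8 FPKM in edf1-D replicates 1 to 3 and 170.0, 2.86 and 2.50 FPKM in WT replicates 1 to 3. Its mean was 91.3 ± 140.5 FPKM in edf1-D and 58.4 ± 96.6 FPKM in WT (SD, n = 3 each), so the spread within a genotype exceeded both means. Next came Zm00001eb032980, at 2.54, 38.7 and 3.65 FPKM in edf1-D and 19.9, 2.80 and 0.88 FPKM in WT. A single library per genotype carried both genes.

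In 2 members both libraries were at or above the lower high library, so that only the third replicates were low. Zm00001eb050710 had 15.0, 24.6 and 1.91 FPKM in edf1-D and 14.4, 18.5 and 2 FPKM in WT. Zm00001eb251950 had 7.66, 8.42 and 1.72 FPKM in edf1-D and 5.82, 9.80 and 0.94 FPKM in WT. In both genes the third replicate of each genotype stood apart from the other two, and replicates 1 and 2 of the genotypes overlapped. Members low in the third replicates alone were thus rare among the 150. The lowest of the 6 libraries was replicate 3 of either genotype, alone or tied, in 138 of the 150 members, and in 85.1% of the 9280 genes.

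Member genes covered a wide range of abundance. Their mean over the 6 libraries ran from 5.01 to 1086 FPKM, with a median of 13.0 FPKM, against 15.6 FPKM for the 9280 genes. From 5 to 10 FPKM there were 62 members (41.3%, against 31.8% of the 9280 genes), from 10 to 50 FPKM 53 (35.3% against 50.4%), and at 500 FPKM or more 4 (2.67% against 1.39%). Among the 100 most abundant genes of the series 3 were members.

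The 2 most abundant members were picked after their values were seen. Zm00001eb330460 stood at 691.9, 3048 and 599.2 FPKM in edf1-D replicates 1 to 3 and at 1280, 551.9 and 347.6 FPKM in WT replicates 1 to 3. Its high value in edf1-D replicate 2 was the highest of any member in any library. Zm00001eb175600 stood at 910.7, 1433 and 717.1 FPKM in edf1-D and at 1477, 1080 and 703.9 FPKM in WT, so that its high libraries and its low libraries were each close between the genotypes.

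Gene models of the members were simpler than those of other genes, a feature that the rule did not use. A single annotated transcript was given for 111 of the 150 members (74.0%), against 38.1% of the 9280 genes. Only 9 members (6%) had 3 or more transcripts, against 37.7%, and none had 10 or more. The share of single-transcript genes was alike at each level of abundance: 72.6% of members from 5 to 10 FPKM, 75.5% from 10 to 50 FPKM and 74.3% at 50 FPKM or more, against 37.0%, 37.4% and 42.3% of the 9280 genes. When the 150 largest gaps were drawn again, 110 were single-transcript genes under TPM and 111 under median-ratio scaling. These lists are largely the same genes, with 131 and 141 of the members among them, so they are no separate support. Among the 150 genes with the largest reverse gap there were 57 (38.0%). Only 99 of these 150 had the third replicates above both other libraries. The rest had a reverse gap of 0 or below, down to -0.04. This reverse list was drawn on the deposited values only. Whether the share of single-transcript genes is particular to genes low in the third replicates was not tested.

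The relation to transcript number ran through all genes meeting the filters. Of 3539 genes with 1 transcript 3.14% were members, of 2242 with 2 transcripts 1.34%, and of 3499 with 3 or more 0.257%. The median gap was 0.08, 0.02 and -0.01 in these classes. How short or how well annotated these genes are was not analysed here, since no lengths or names were paired with the IDs.

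**Figure D5:**
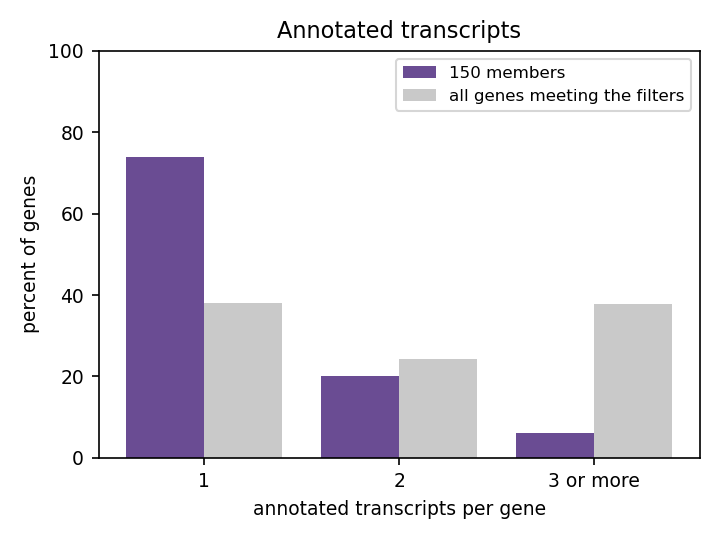
Percent of the 150 members (purple) and of the 9280 genes meeting the filters (grey) with 1, 2, or 3 or more annotated transcripts. Single-transcript genes made up 74.0% of members and 38.1% of the 9280 genes.

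In the 39 members with 2 or more transcripts, 59 transcripts had a mean of 1 FPKM or more, and 49 of them had a gap above 0. These transcripts add up to the gene values that chose the members, so this count was largely fixed by the rule. It is a description, with no share over all transcripts beside it. The leading transcript held a median of 91.5% of the gene's FPKM. It was the same in all 6 libraries in 23 of these members, and in 5 members the high libraries had another leading transcript than the third replicates. Assigning short reads to isoforms makes such shares less certain than gene totals.

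Along the order of gene IDs the members were spread over nearly the whole range, from rank 226 to rank 17844. In 10 equal stretches of this order there were between 12 and 20 members each, where an even spread gives 15. Neighbouring members were a median of 90 ranks apart. There were 2 pairs of members with adjacent ranks. One pair held Zm00001eb183230, the largest gap, next to Zm00001eb183220, which stood at 107.5, 192.9 and 72.6 FPKM in edf1-D replicates 1 to 3 and at 237.6, 144.4 and 82.1 FPKM in WT replicates 1 to 3. Whether adjacent IDs are near-identical copies that share reads was not analysed here. The last 537 ranks, which the rule left out, held 264 genes with a mean of 5 FPKM or more, of which 2 had a gap above that of the last member.

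The design compares edf1-D with WT, and no member was called as changed in that comparison. With limma on log2(FPKM + 1) over all 18719 genes, 0 members were higher and 0 lower at a Benjamini-Hochberg adjusted p under 0.05, against a background of 1.45% higher and 2.19% lower (3.64% in all). No member had an unadjusted p under 0.05 (19.5% of tested genes had), and the smallest adjusted p of a member was 0.296. The rule fixes this outcome in large part: a positive gap puts WT replicate 1 above edf1-D replicate 3 and edf1-D replicate 2 above WT replicate 3, so in no member can the genotypes be free of overlap, as 26.3% of tested genes were. It also widens the error, with a median SE of 0.57 over members and 0.22 over tested genes. Nothing about the genotype is read from the 0 calls.

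The fold changes of the members lay on both sides of 0. The edf1-D minus WT log2 fold change was positive in 84 members and negative in 66, between -2.03 and 1.71. Its median was 0.09, against -0.12 over the tested genes. The direction in which these medians moved depended on the method of rescaling. TPM took both down, to -0.02 and -0.22, whereas each of the remaining methods took both up. Median-ratio values were 0.21 for members and -0.01 for tested genes. Upper quartile values were 0.16 and -0.05, and quantile normalization gave 0.15 and -0.01. Among the libraries the gap did not use, edf1-D replicate 1 minus WT replicate 2 had a median of -0.31 over members and -0.24 over the 9280 genes. After median-ratio scaling the values were -0.02 and 0.05. The shift between these libraries in the members was thus close to that of all genes under both scalings.

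With edf1-D replicate 2 and WT replicate 1 left out, 2 libraries per genotype remained, and 3 members were called higher and 4 lower in edf1-D. These 7 are 4.67% of the members, against 5.28% of the 18719 genes called in the same fit (1.84% higher, 3.44% lower), so the members' share was near the background. The libraries kept include the third replicates, whose values chose the members, so these calls are a description and nothing about the genotype is read from them either. The highest and lowest of them were picked after their values were seen. Zm00001eb032610 stood at 131.5 and 198.5 FPKM in edf1-D replicates 1 and 3 and at 88.0 and 18.7 FPKM in WT replicates 2 and 3, with an edf1-D minus WT difference of 1.96 ± 0.46 on the log2 scale (SE, limma, adjusted p = 0.0118). Its left-out libraries had 557.1 FPKM in edf1-D replicate 2 and 445.8 FPKM in WT replicate 1, so the genotypes overlapped over all 6.

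Zm00001eb173510 was listed at 0 in edf1-D replicates 1 and 3, against 27.0 and 2.38 FPKM in WT replicates 2 and 3, with a limma adjusted p of 0.00058 in that fit. Its other libraries held 318.5 FPKM in edf1-D replicate 2 and 5.78 FPKM in WT replicate 1. The same gene was thus the highest of its 6 libraries in edf1-D replicate 2 and listed at 0 in the other 2 edf1-D libraries, and its call with 4 libraries does not stand with all 6, where no member had an adjusted p under 0.296. With edf1-D replicate 2 alone left out, 1 member was called lower, against a background of 1.88% lower.

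Transcript composition gave no call either. Of the members, 13 had isoforms abundant enough to be tested, with 28 transcripts, and 0 of the 13 showed a change in isoform share between genotypes (limma, adjusted over 5643 transcripts), against 1.16% of the 2671 genes tested. With so few members tested, 0 calls is near that share and nothing about the members is read from it. The smallest adjusted p among the 28 transcripts was 0.569, and 0 had an unadjusted p under 0.05, which 9.75% of all tested transcripts had.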

How the data were processed

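Leaf mRNA of 3 edf1-D and 3 WT libraries was sequenced on an Illumina NovaSeq, after TruSeq library preparation per the labels' protocols. The deposited files hold 1 value with 2 decimals for each of 77341 transcripts. No header states the unit, and the deposited values were read as FPKM because they carry decimals and their sums differ between libraries. The tools listed, per the submitters' processing notes, are Trimmomatic 0.36, HISAT2, RSEM and DESeq2, with no word on what each did. Their genome build was not given in the sources used here. Read depth is unknown: a search for steps of single reads in low values, at the best shift, placed 13.1% to 15.9% of ratios on small whole numbers, against 8.07% to 8.32% at a typical shift, and no common step was read from it. No count model was therefore run.

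Transcript values were summed by gene. Genotypes were compared with limma 3.58.1 (R 4.3.3) with an intensity trend on log2(FPKM + 1), without covariates, over genes with 0.5 FPKM or more in 3 or more libraries; calls are two-sided at a Benjamini-Hochberg adjusted p under 0.05. Fold changes on this scale understate those of low genes. For isoform shares, limma was run on the log2 ratio of a transcript to the gene's other transcripts, 1 added to both, for mean shares of 10% to 90% in genes with a mean of 5 FPKM or more and 1 FPKM or more in every library. The script was also run on simulated data, with noise drawn separately for each gene and library. No shift shared by all genes of a library was simulated, so that run does not cover such shifts. No label says if the kit keeps strand, so antisense partners may be counted together, and near-identical copies may share reads.

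The members, the naming rule and the tests were chosen with earlier results of these data known. Named by rule were the 2 largest gaps and the 2 largest gaps each among members with both libraries outside the gap low, and with both high. No gene was named for the genotype comparison, since none was called or free of overlap. The planned gene lists and cell type markers need gene names and were not used. The labels name no batch, and replicate numbers were not taken to pair the libraries. Deviations from the genotype means correlated at -0.19, -0.01 and 0.35 across genes for replicates 1, 2 and 3, which does not decide it. Scaling, pseudocount, filters, a replicate block, robust variances and left-out libraries were tried as alternatives.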

Additional observations from a re-analysis of the deposited data

How the results depend on the processing

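Of 84 alternative values, 79 stayed within 1.5 times of the count reported or, for the median fold change, within the spread between libraries. That spread was 0.89 on the log2 scale, wide beside the reported median of 0.09. Counts of 0 calls and of gaps above 0 were largely fixed by the rule, so the tally is no measure of robustness. The 0 members called by genotype remained 0 in both directions under each scaling, pseudocount, filter, robust variances and a threshold of 0.01. At a threshold of 0.05 these fits called from 1.37% (no filter) to 11.8% (upper quartile scaling) of tested genes. The overlap set by the rule held in nearly all members under each scaling, so these repeats are no separate support. The replicate block also called 0 members, against 5.08% of tested genes, and gave an isoform share change in 0 of the 13 members tested for it. Deviations of same-numbered libraries correlated at 0.35 for replicate 3 but at -0.19 and -0.01 for replicates 1 and 2, so the numbers were not taken to pair the libraries. With 1 library left out, 0 members were called higher and 0 to 1 lower, against 1.56% to 2.91% of tested genes in both directions. The call came without edf1-D replicate 2 (Zm00001eb255960, limma adjusted p = 0.0265). With WT replicate 1 and edf1-D replicate 2 left out, 3 were called higher and 4 lower, against 5.28% of tested genes in all. With the third replicates of both genotypes left out, limma called 0 members, which is near the 0.801% of tested genes. Over the members the median log2 fold change, 0.09, ran from -0.47 (without edf1-D replicate 2) to 0.47 (without WT replicate 1), and its sign followed which of the chosen high or low libraries stayed in. Raising the minimum mean to 10 FPKM left 88 of the 150 among the largest gaps, because 62 members lie below it; lowering it to 2 FPKM left 109. With TPM, edf1-D replicate 1 was above the third replicates of both genotypes in 70 members, where 112 were reported. The cause of that difference was not tested. The naming rule gave no member for the genotype comparison with all 6 libraries, so no such fold change was refitted; members named from fits with libraries left out were picked after their values were seen. The unknown depth limits values near 0.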
